A study of Mus musculus with 6 samples.

Results

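The 44 genes described here encode nucleolar ribosome biogenesis factors, proteins that transcribe ribosomal RNA, modify it, cleave it and assemble it into pre-ribosomes. They came from a list of mouse gene symbols. No measured value was used to pick them, but earlier results of these data were known when the list was made. Each symbol matched 1 of the 50686 gene identifiers in the count files, and all 44 were among the 16729 genes that passed the filter on low counts. They were arranged by the known role of their products into 6 groups. RNA polymerase I machinery held Polr1a, Polr1b, Polr1c, Rrn3, Ubtf and Tcof1. The box C/D and U3 small nucleolar ribonucleoproteins (snoRNPs) held Fbl, Nop56, Nop58 and Rrp9. The box H/ACA snoRNP and its chaperone held Dkc1, Gar1, Nhp2, Nop10 and Nolc1. Small subunit assembly held Heatr1, Utp4, Utp15, Wdr43, Wdr75, Utp20, Nop14, Noc4l, Nat10, Ddx10, Rrp12, Bysl and Ltv1. Large subunit assembly held Pes1, Bop1, Wdr12, Nop2, Nop16, Rrp1, Rrp1b, Ebna1bp2, Gnl3, Noc2l, Noc3l and Sdad1. The abundant nucleolar proteins Ncl, Npm1, Ddx21 and Mybbp1a formed the last group.

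Mouse induced pluripotent stem cells (iPSCs), reprogrammed from gingival fibroblasts and grown on SNL feeder cells, were formed into embryoid bodies, exposed to retinoic acid and attached to gelatin-coated plates. In serum-free medium the constructs then received intermittent compressive force (ICF) of 1.5 g per square centimeter at 0.23 Hz for 24 h, or were left unloaded as the control for the same time. Messenger RNA was sequenced from 3 samples of each group, which the labels number as donors 1 to 3 in both groups. The methods speak of independent experiments and name no donors, so the p-values measure the spread between these samples, which may be partly technical.

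Ribosomes are built in the nucleolus, where RNA polymerase I transcribes a long precursor that contains the 18S, 5.8S and 28S ribosomal RNAs. Box C/D snoRNPs guide methylation of the precursor and box H/ACA snoRNPs guide its pseudouridylation, while the U3 snoRNP and the small subunit processome cleave it and large subunit factors assemble the remaining part. In proliferating and pluripotent cells this pathway is known to be highly active, and many of its genes are known targets of the transcription factor Myc.

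Gene counts summed to 28711166 in the shallowest library and to 34194413 in the deepest. ICF replicate 3 stood apart, since its counts above 0 were divisible by 4 in 89.0% of cases (20.3% to 21.5% in the remaining libraries) and since 20802 genes had a count there, with 24340 to 24889 elsewhere. The lowest count of any of the 44 genes in any sample was 1956, so steps of 4 reads are small against each value. This covers the step size only, and whether the depth of ICF replicate 3 is overstated was not tested. Deviations from the group means were also most alike between the replicate 3 samples of both groups (r = 0.502 across genes). All 9 pluripotency markers examined, Pou5f1, Nanog and Sox2 among them, were measured in every sample. Their summed level ranged from 3670 to 4414 CPM (counts scaled to a common library size) in the control and from 3335 to 3719 CPM with ICF, and 1 of the 9, Tdgf1, was downregulated in edgeR without a donor block (the donor number as a term in the model) and 3 with it. Fibroblast markers, examined because of the feeder cells, summed to between 41.1 and 68.3 CPM in the control and between 69.3 and 92.4 CPM with ICF, with 2 of the 7 that could be tested upregulated without the block (Col1a1 and Col3a1) and 3 with it, while Lum and Fap, of 9 in all, were too low to test and at 0 in at least 1 sample. Neural markers summed to between 143 and 165 CPM in the control and between 131 and 143 CPM with ICF, and 1 of the 7 tested was downregulated without the block (Elavl3). With the block 3 neural markers were upregulated and 2 downregulated. Neurog2, the eighth, was too low to test and at 0 in 1 sample. The part of these markers in the results below was not tested.

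Transcript levels of nucleolar factors differed little between ICF and control. Ubtf, the factor that binds ribosomal DNA and activates RNA polymerase I, was the only 1 of the 44 genes upregulated in edgeR's quasi-likelihood test at an adjusted p under 0.05, where 3.47% of all genes tested were upregulated. None of the 44 was downregulated in that test, against 4.38% of all genes. At an unadjusted p under 0.05, 9 were higher with ICF and 1, Dkc1, was lower, where 12.4% and 13.2% of all genes were, respectively. DESeq2 on the same counts called 5 upregulated (Ubtf, Polr1a, Polr1b, Utp20 and Rrp1b; 5.38% of all genes) and 0 downregulated (6.49% of all genes). With the donor number as a block in edgeR, 11 were upregulated and 1 was downregulated, against 14.6% and 15.3% of all genes. In these bulk samples, fewer cells of a type and less RNA per cell cannot be told apart.

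The log2 fold changes of the 44 genes, ICF over control, ran from -0.14 to 0.31 with a median of 0.06, and 41 of the 44 were within 0.2 of 0. Of the 44, 32 were above 0 (72.7%), where 50.4% of all genes tested were, and the median over all genes was 0.00. The median difference was 0.05, 0.07 and 0.07 within donors 1, 2 and 3. Every ICF sample lay above every control sample in 14 of the genes, where this held for 15.6% of all genes, and below in 1, Dkc1, where it held for 15.7%. In 20 genes the ICF sample was the higher in all 3 donor pairs and in 3 genes (Dkc1, Noc2l and Nop14) it was the lower, where each held for 28.3% of all genes. Summed over the 44 genes, transcript levels were 14505, 14883 and 15123 CPM in control replicates 1, 2 and 3, and 14868, 15236 and 16181 CPM in ICF replicates 1, 2 and 3. The sums of the groups overlapped, since ICF replicate 1 lay below control replicates 2 and 3.

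**Figure D1:**
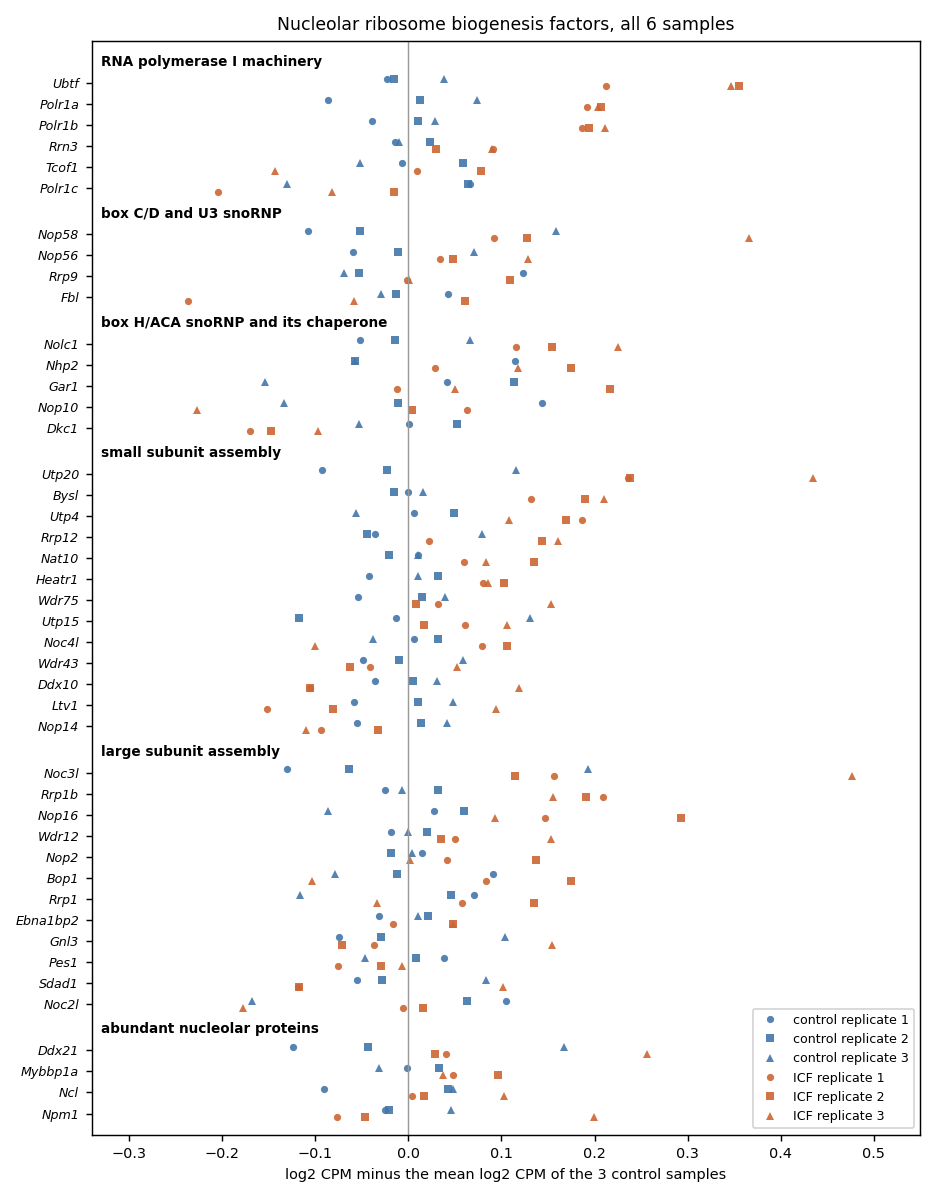
Level of each of the 44 genes in each of the 6 samples, as log2 CPM minus the mean log2 CPM of the 3 control samples, grouped by role (blue, control; orange, ICF; symbols mark the replicate number). Most orange points lie within 0.2 of the control mean, and Ubtf, Polr1a, Polr1b, Utp20, Bysl and Rrp1b are among the 14 genes whose ICF samples all lie to the right of all control samples, whereas Dkc1 is the only gene with all ICF samples to the left.

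Among RNA polymerase I genes the fold changes had a median of 0.13 on the log2 scale over 6 genes and ran from -0.10 to 0.31. Ubtf (ENSMUSG00000020923, chr11:102304560-102319742 of GRCm38, minus strand) was at 284, 285 and 296 CPM in control replicates 1, 2 and 3, and at 334, 369 and 366 CPM in ICF replicates 1, 2 and 3. All ICF samples were above all control samples, and means were 288 ± 6.71 and 356 ± 19.5 CPM (SD, n = 3 each). The log2 fold change was thus 0.31 (SE 0.05, 1.24-fold, adjusted p = 0.0203 in edgeR's quasi-likelihood test), and differences within donors 1, 2 and 3 were 0.23, 0.37 and 0.31. This call did not hold in every fit that left out 1 sample. The adjusted p in edgeR was 0.0728 without ICF replicate 2, 0.0992 without control replicate 1 and 0.118 without control replicate 2. It was 0.0286 without ICF replicate 3. The log2 fold change stayed between 0.29 and 0.36 in the 6 fits of this kind. Over all genes these fits called 85 to 724 upregulated, against 580 with all samples. With the donor block the adjusted p of Ubtf in edgeR was 1.02e-05.

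Polr1a and Polr1b encode the large catalytic subunits of RNA polymerase I. Polr1a (chr6:71909053-71984935, plus strand) was at 134, 143 and 149 CPM in the control and at 162, 164 and 163 CPM with ICF, a spread of 7.86 CPM (SD) between control samples and of 0.87 CPM between ICF samples. Its log2 fold change was 0.20 (SE 0.05), and edgeR's adjusted p was 0.0772 without and 0.00247 with the donor block. Polr1b (chr2:129100995-129126594, plus strand) was at 113, 117 and 118 CPM in the control and at 132, 133 and 134 CPM with ICF. Neither gene's groups overlapped, yet edgeR with all 6 samples called neither without the block. For Polr1b the log2 fold change was again 0.20 (SE 0.02), with an adjusted p of 0.0598 in edgeR without and 0.00298 with the block. An exact two-sided permutation test of 3 against 3 samples cannot go below p = 0.1, which is the value obtained for Ubtf, Polr1a and Polr1b alike.

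The other 3 genes of this machinery moved less. Polr1c, a subunit shared with RNA polymerase III, had the lowest fold change of the group. It was at 179.9, 179.7 and 157 CPM in the control and at 149, 170.1 and 162 CPM with ICF, so that the groups overlapped (log2 fold change -0.10, SE 0.09, adjusted p = 0.448 in edgeR). Without replicate 3 of both groups its log2 fold change was -0.17, with an adjusted p of 0.0269 in edgeR. Rrn3, the initiation factor that joins the polymerase to the promoter-bound complex, was at 268, 275 and 269 CPM in the control and at 288, 276 and 288 CPM with ICF, just above in every sample (log2 fold change 0.07, SE 0.02, adjusted p = 0.451 in edgeR). Tcof1, which encodes treacle, had a log2 fold change of -0.02 (SE 0.07) and overlapping groups.

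**Figure D2:**
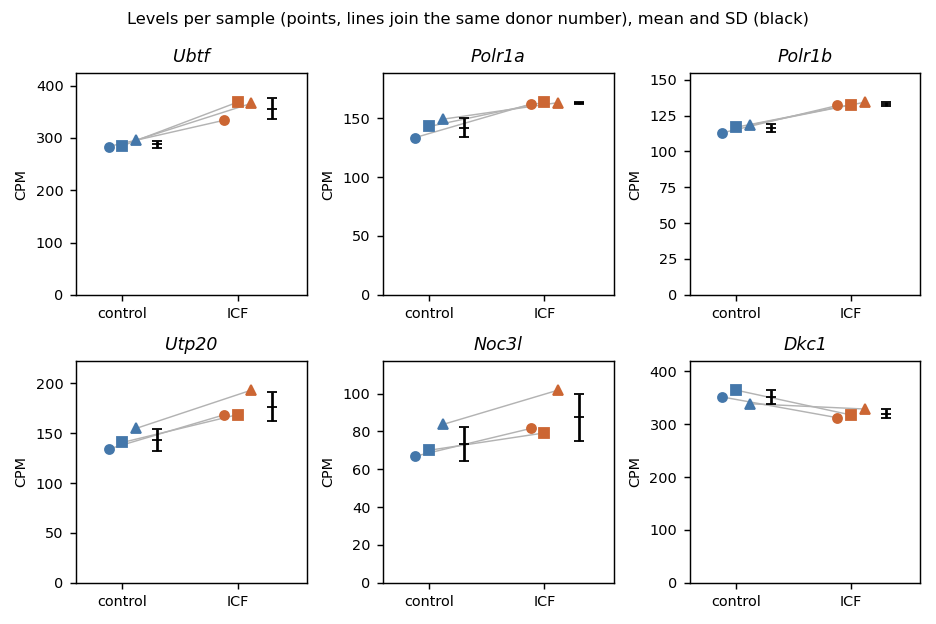
Levels in CPM of Ubtf, Polr1a, Polr1b, Utp20, Noc3l and Dkc1 in each sample (points), with gray lines joining samples of the same donor number and the mean and SD of each group in black (n = 3). In all 3 donor pairs the lines rise for Ubtf, Polr1a, Polr1b, Utp20 and Noc3l and fall for Dkc1, and the groups overlap for Noc3l alone.

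The box C/D and U3 snoRNP genes had a median of 0.05 on the log2 scale over 4 genes. Nop58 (chr1:59684971-59719044, plus strand), a core protein of box C/D particles, was at 464, 483 and 559 CPM in the control and at 533, 547 and 645 CPM with ICF. Replicate 3 was the highest in both groups, and control replicate 3 lay above 2 of the ICF samples. The log2 differences within donors 1, 2 and 3 were nearly equal, at 0.20, 0.18 and 0.21. Accordingly the log2 fold change of 0.20 (SE 0.12) had an adjusted p of 0.237 in edgeR without the block and of 0.00187 with it. It was 0.11 without ICF replicate 3, 0.28 without control replicate 3 and 0.19 without both. Fbl, the methyltransferase fibrillarin, was lowest in the group. Its levels were 199, 191 and 189 CPM in the control and 164, 202 and 186 CPM with ICF (log2 fold change -0.07, SE 0.09, adjusted p = 0.603 in edgeR), and this small difference was 0.01 without ICF replicate 1. Of the 75-base stretches in the principal transcript of Fbl, 67.3% also occurred in transcripts from other loci, so part of its reads may not have been counted. The same held for 35.8% of the stretches of Nop56, another core protein, and its exons overlap snoRNA genes on the same strand. Nop56 and the U3 protein gene Rrp9 had log2 fold changes of 0.07 (SE 0.05) and 0.03 (SE 0.07), with overlapping groups.

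Among the box H/ACA genes, 1 fell and 1 rose with the donor block. Dkc1 (chrX:75095854-75109777, plus strand) encodes dyskerin, the pseudouridine synthase of the particle. It was at 351, 364 and 339 CPM in the control and at 312, 317 and 329 CPM with ICF, with every ICF sample below every control sample (352 ± 12.9 against 319 ± 8.41 CPM, SD, n = 3 each). The log2 fold change was -0.14 (SE 0.04), with an adjusted p of 0.166 in edgeR without the block and of 0.0322 with it. The log2 differences within donors 1, 2 and 3 were -0.17, -0.20 and -0.04. Nolc1 (chr19:46075863-46085530, plus strand), which encodes the snoRNP chaperone Nopp140, was at 385, 396 and 418 CPM in the control and at 433, 445 and 467 CPM with ICF, without overlap. It was higher by 0.17, 0.17 and 0.16 within donors 1, 2 and 3 (log2 fold change 0.17, SE 0.05), and edgeR's adjusted p was 0.126 without and 0.00809 with the block. The particle's other core genes Gar1, Nhp2 and Nop10 had log2 fold changes of 0.08, 0.11 and -0.05, and the groups overlapped in all 3. Dkc1 and Nop10 were thus below 0 and Gar1 and Nhp2 above it, with SEs of 0.11, 0.07 and 0.12 for Gar1, Nhp2 and Nop10.

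Small subunit assembly, the largest group with 13 genes, had a median log2 fold change of 0.07 and no gene past the edgeR threshold without the block. Utp20 (chr10:88746607-88826804, minus strand), a very large protein of the small subunit processome, came nearest to it. It was at 134, 141 and 155 CPM in the control and at 168, 169 and 193 CPM with ICF, again without overlap (143 ± 10.6 against 177 ± 14.3 CPM, SD, n = 3 each). Its log2 fold change of 0.30 (SE 0.09) had an adjusted p of 0.0522 in edgeR, which became 1.33e-05 with the block and 0.0294 without control replicate 3. Utp4 (chr8:106893636-106923088, plus strand), of the subcomplex that binds the precursor early and is linked to its transcription, was at 203, 209 and 194 CPM in the control and at 229.9, 227 and 218 CPM with ICF. Bysl (chr17:47599331-47611492, minus strand), a factor of late small subunit maturation, was at 92.9, 91.9 and 93.9 CPM in the control and at 102, 106 and 107 CPM with ICF. Neither gene's groups overlapped, with log2 fold changes of 0.15 (SE 0.04) for Utp4 and 0.18 (SE 0.03) for Bysl. Both passed the edgeR threshold with the block, at adjusted p-values of 0.0155 and 0.00928, and not without it, at 0.131 and 0.0853. Of the exon bases of Bysl, 9.37% overlap Ccnd3 on the opposite strand.

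The remaining small subunit genes spread around 0. Nop14, of the small subunit processome, was lowest at 125, 131 and 133 CPM in the control and 121, 126 and 119.9 CPM with ICF. Its groups overlapped, although the ICF sample was the lower in each donor pair (log2 fold change -0.08, SE 0.04, adjusted p = 0.431 in edgeR). Heatr1, of the same early subcomplex as Utp4, and Nat10, the acetyltransferase of 18S ribosomal RNA, had log2 fold changes of 0.09 each (SE 0.02 each) without overlap of the groups, at adjusted p-values of 0.334 and 0.317 in edgeR. Utp15, Wdr43 and Wdr75 of that subcomplex had log2 fold changes of 0.06, -0.02 and 0.07 with overlapping groups. The processome and maturation genes Noc4l, Rrp12, Ddx10 and Ltv1 had 0.03, 0.11, -0.03 and -0.04, likewise with overlap.

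Large subunit assembly, with 12 genes, had a median log2 fold change of 0.05. Noc3l (chr19:38788128-38819237, minus strand), a factor of large subunit maturation, had the highest fold change of these 12 genes, and its spread over the 6 samples was the largest of all 44. It was at 66.9, 70.1 and 83.7 CPM in the control and at 81.6, 79.3 and 102 CPM with ICF. Replicate 3 was the highest in both groups, and control replicate 3 exceeded ICF replicates 1 and 2. The log2 fold change was 0.25 (SE 0.15), with an adjusted p of 0.216 in edgeR without the block and of 0.000553 with it. Its value was 0.14 without ICF replicate 3 and 0.35 without control replicate 3. Rrp1b (chr17:32036100-32062865, plus strand), which is related to the processing factor Rrp1, was at 144, 149.8 and 146 CPM in the control and at 169, 167 and 163 CPM with ICF. Nop16 (chr13:54584185-54590090, minus strand), a nucleolar protein of pre-60S particles, was at 85.6, 87.6 and 79.1 CPM in the control and at 93.0, 103 and 89.6 CPM with ICF. Neither gene's groups overlapped, and the log2 fold changes were 0.19 (SE 0.02) for Rrp1b and 0.18 (SE 0.07) for Nop16. Adjusted p-values in edgeR were 0.0695 and 0.167 without the block, and 0.00448 and 0.0103 with it.

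Noc2l, a nucleolar partner of Noc3l, stood lowest in this group. It was at 291, 283 and 241 CPM in the control and at 269.9, 274 and 239.7 CPM with ICF, with replicate 3 lowest in both groups (log2 fold change -0.06, SE 0.10, adjusted p = 0.718 in edgeR). Its log2 fold change was 0.01 without ICF replicate 3, and 20.9% of its exon bases overlap Samd11 on the opposite strand. Ebna1bp2, which encodes a nucleolar scaffold protein of large subunit assembly, had the smallest spread of all 44 genes. It was at 182, 188 and 187 CPM in the control and at 183, 192 and 192 CPM with ICF (log2 fold change 0.03, SE 0.03, adjusted p = 0.796 in edgeR). The genes of the PeBoW complex, which processes the large subunit precursor, had log2 fold changes of -0.04 (Pes1), 0.06 (Bop1) and 0.08 (Wdr12), and of these only the groups of Wdr12 did not overlap. For Pes1, 10.9% of the 75-base stretches also occur at other loci. Nop2, a methyltransferase of 28S ribosomal RNA, had 0.06, and Rrp1, Gnl3 and Sdad1 had 0.05, 0.02 and -0.04, all with overlapping groups.

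The 4 abundant nucleolar proteins had the narrowest range of fold changes of the 6 role groups, from 0.03 to 0.11 on the log2 scale. A range tends to widen with the number of genes, and the groups differ in size. Their median of 0.05 was near that of the box C/D and U3 group (0.05) and of large subunit assembly (0.05). Npm1, the nucleolar chaperone nucleophosmin, was lowest at 3459.9, 3470.2 and 3633 CPM in the control and 3338, 3408 and 4041 CPM with ICF. Its log2 fold change of 0.03 (SE 0.09, adjusted p = 0.848 in edgeR) rested on ICF replicate 3, without which it was -0.06. Other loci share 30.9% of the 75-base stretches of its principal transcript. Ddx21, an RNA helicase of ribosomal RNA transcription and processing, was highest at 393, 416 and 481 CPM in the control and 440.2, 437 and 511 CPM with ICF. Replicate 3 was again the highest in both groups (log2 fold change 0.11, SE 0.11, adjusted p = 0.511 in edgeR without and 0.0890 with the block). The value was 0.04 without ICF replicate 3, 0.05 without control replicate 1, 0.19 without control replicate 3 and 0.12 without replicate 3 of both groups. Ncl, nucleolin, and Mybbp1a, a Myb-binding protein of the nucleolus, had log2 fold changes of 0.04 (SE 0.05) and 0.06 (SE 0.03). The groups of Mybbp1a did not overlap.

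With the donor number in the model, the count of upregulated genes in edgeR went from 1 to 11. The pairing by number was clear for replicate 3 only (r = 0.502 for deviations from group means across genes). Control replicate 1 correlated better with ICF replicate 2 (0.38) than with ICF replicate 1 (0.228). The 11 were Ubtf, Polr1a, Polr1b, Nop58, Nolc1, Utp20, Utp4, Bysl, Nop16, Rrp1b and Noc3l. In every one the ICF sample was the higher in all 3 donor pairs (28.3% of all genes). The block compares within donors, so this agreement of sign is largely built into the choice of these genes. DESeq2 with the block called the same 11 upregulated (8.4% of all genes) and Dkc1 downregulated (9.8% of all genes). Leaving out replicate 3 of both groups, without the block, gave 11 upregulated genes, again the same ones, and 2 downregulated, Dkc1 and Polr1c. In that fit 14.6% and 15.6% of all genes were called. These fits share the same counts, so their agreement is not independent evidence. Replicate 3 was the highest of its group in both the control and the ICF group in 18 of the 44 genes (27.5% of all genes) and the lowest in both in 9 (28.7% of all genes). Noc3l, Nop58, Ddx21 and Utp20 were on the high side. Replicate 3 of Noc3l exceeded the mean of replicates 1 and 2 by 0.29 in the control and by 0.34 with ICF on the log2 scale, more than the difference between the groups.

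**Figure D3:**
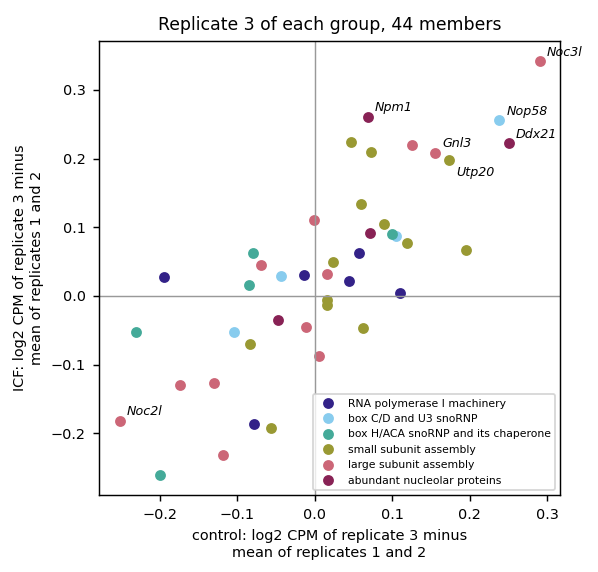
For each of the 44 genes, log2 CPM of replicate 3 minus the mean of replicates 1 and 2, in the control (x axis) and with ICF (y axis), colored by role. The 18 genes whose replicate 3 was highest in both groups lie at the upper right, with Noc3l farthest out at 0.29 and 0.34, and the 9 genes whose replicate 3 was lowest in both groups lie at the lower left.

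A further 114 ribosome biogenesis factors, listed from knowledge of the pathway, had log2 fold changes with a median of 0.07, and 83 were above 0. In edgeR 5 were upregulated (Rrp8, Ngdn, Imp4, Aatf and Ttf1) and 2 downregulated (Imp3 and Xrn2), against 3.47% and 4.38% of all genes. With total counts in place of TMM scaling the split was 9 to 1, against 4.45% and 3.83% of all genes, and with the donor block it was 34 to 7, against 14.6% and 15.3% of all genes. Rrp8, a nucleolar methyltransferase, was at 43.97, 42.4 and 39.5 CPM in the control and at 53.8, 59.0 and 53.6 CPM with ICF (log2 fold change 0.40, SE 0.06, adjusted p = 0.0139 in edgeR). Ngdn, a factor of small subunit assembly, was at 62.6, 57.9 and 62.1 CPM in the control and at 74.1, 80.5 and 74.0 CPM with ICF (log2 fold change 0.32, SE 0.05, adjusted p = 0.0217 in edgeR). Imp3 encodes a protein of the U3 snoRNP and moved the opposite way. It was at 72.1, 60.9 and 55.7 CPM in the control and at 47.2, 46.6 and 40.3 CPM with ICF (log2 fold change -0.49, SE 0.13, adjusted p = 0.0270 in edgeR). All 3 calls were lost without replicate 1 or 2 of either group and held without replicate 3 of either. Over these 6 fits edgeR's adjusted p ran from 0.0116 to 0.0819 for Rrp8, from 0.0181 to 0.131 for Ngdn and from 0.0145 to 0.102 for Imp3. Their log2 fold changes ran from 0.36 to 0.44, from 0.29 to 0.35 and from -0.57 to -0.38, respectively.

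The 82 cytosolic ribosomal protein genes, whose products the nucleolar factors assemble, lay on the other side of 0. Their median log2 fold change was -0.23 and 80 of the 82 were below 0, where 8292 of all 16729 genes tested were. The exceptions were Rps27l and Rpl10l. Of the 82, 2 were upregulated (these same exceptions) and 6 downregulated in edgeR (Rpl3, Rpl26, Rpl38, Rps14, Rps15a and Rps18), where 3.47% and 4.38% of all genes were called. With the donor block 2 were upregulated and 65 downregulated, against 14.6% and 15.3% of all genes. Rpl24, Rpl3l and Rps27rt were near the floor, at mean counts of 25.5, 45 and 11.2. Stretches shared with other loci were not examined for the ribosomal protein genes. Replicate 3 was the lowest of its group in both groups in 66 of the 82 (80.5%), where this held for 28.7% of all genes. Summed over the 82 genes, levels were 57592, 54109 and 48100 CPM in control replicates 1, 2 and 3, and 46255, 48712 and 43026 CPM in ICF replicates 1, 2 and 3. The ICF sample was the lower within each donor, whereas the sums overlapped between groups through control replicate 3. For the 44 nucleolar factors the sum was the higher with ICF within each donor.

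**Figure D4:**
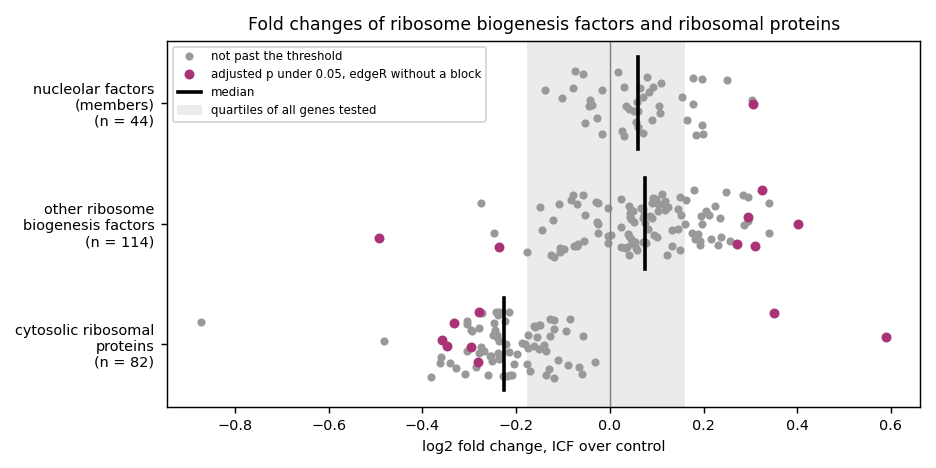
Log2 fold change (ICF over control) of each nucleolar factor, each other ribosome biogenesis factor and each cytosolic ribosomal protein gene, with the median of each list (black bar), the quartiles of all genes tested (gray band) and genes at an adjusted p under 0.05 in edgeR without a block in purple. Both lists of biogenesis factors lie around small positive medians of 0.06 and 0.07, and ribosomal protein genes lie around -0.23.

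Gene length moved with these fold changes. Across the 44 genes, Spearman's rho between the log2 fold change and the exon length was 0.411, and across 14206 protein-coding genes it was 0.125, where all points share the same 6 libraries. With an offset for length in the model, rho was 0.151 across the 44 genes and 0.0168 across protein-coding genes. The offset was smoothed from the length trend of these same libraries, so a smaller rho was built into that fit. The median log2 fold change of the 44 genes was then 0.05, Ubtf kept its call (0.28, adjusted p = 0.0206 in edgeR) and Utp20 also passed (0.26, adjusted p = 0.0339 in edgeR). The share of all genes called in this fit is not given here.

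Myc and Mycn, which encode transcription factors known to bind the CACGTG motif at many ribosome biogenesis genes, were measured beside their possible targets. Myc was at 33.9, 30.5 and 33.1 CPM in the control and at 33.8, 37.8 and 35.1 CPM with ICF (log2 fold change 0.13, SE 0.07, adjusted p = 0.330 in edgeR). Mycn was at 314, 306 and 266 CPM in the control and at 298, 324 and 319 CPM with ICF (log2 fold change 0.09, SE 0.08, adjusted p = 0.522 in edgeR). The groups overlapped for both genes, and the value of Mycn was 0.01 without control replicate 3.

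Promoter windows of 300 bases around RefSeq transcription starts (GRCm38.p6) were available for 39 of the 44 genes. The palindrome CACGTG, which reads the same on both strands, was present in 9 of the 39 (23.1%), against 8.09% of all 27025 genes with a window, 17% of the other biogenesis factors and 9.68% of the ribosomal protein genes. The 27025 genes were not limited to those tested here, so they differ from the 39 also in expression. The 9 genes were Rrn3, Utp4, Utp20, Wdr43, Ltv1, Pes1, Nop2, Sdad1 and Mybbp1a. The windows of 3 genes are shown, with the motif in capitals: those of Utp20 and Utp4, the genes with the motif that passed the threshold with the donor block, and that of Rrn3, which holds the motif in 2 places. They lie at chr10:88826765-88827064 on the minus strand for Utp20, chr8:106893390-106893689 on the plus strand for Utp4 and chr16:13780449-13780748 on the plus strand for Rrn3, and each is written 5′ to 3′ along the gene.
Utp20: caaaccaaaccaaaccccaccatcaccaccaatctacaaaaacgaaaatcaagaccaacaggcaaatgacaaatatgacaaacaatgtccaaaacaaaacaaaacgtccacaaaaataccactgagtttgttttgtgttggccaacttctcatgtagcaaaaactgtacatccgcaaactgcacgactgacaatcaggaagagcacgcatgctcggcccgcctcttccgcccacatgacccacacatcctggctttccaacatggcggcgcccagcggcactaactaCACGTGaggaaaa
Utp4: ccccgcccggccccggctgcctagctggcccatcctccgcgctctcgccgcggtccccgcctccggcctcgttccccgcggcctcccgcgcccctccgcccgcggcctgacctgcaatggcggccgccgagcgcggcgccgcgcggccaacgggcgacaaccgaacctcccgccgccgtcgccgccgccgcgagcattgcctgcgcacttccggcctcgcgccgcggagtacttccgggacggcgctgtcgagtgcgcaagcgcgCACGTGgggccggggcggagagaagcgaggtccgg
Rrn3: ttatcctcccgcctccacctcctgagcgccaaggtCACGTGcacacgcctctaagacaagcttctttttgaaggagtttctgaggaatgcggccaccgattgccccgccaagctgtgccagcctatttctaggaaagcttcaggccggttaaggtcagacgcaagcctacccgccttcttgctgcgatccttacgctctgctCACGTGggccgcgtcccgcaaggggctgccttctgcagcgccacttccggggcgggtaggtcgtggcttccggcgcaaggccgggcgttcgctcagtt
In Utp20 and Utp4 the motif lies after the annotated start, and in Rrn3 before it. The median log2 fold change was 0.06 over the 9 genes with the motif and 0.08 over the 30 without it. None of the windows of Ubtf held these letters, which says nothing about binding by either factor.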

How the data were processed

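Per the labels and the methods, the authors checked (FastQC) and trimmed (Trimmomatic) the reads, aligned them by HISAT2 and obtained counts per gene by HTSeq. The deposited values are these whole-number counts, not normalized, for each of the 6 samples. The submitters' processing notes also name bcl2fastq 2.19 and the builds GRCm38 and hg38. Of the 50686 identifiers, 50462 were in the GENCODE M21 annotation of GRCm38, which was used for names, coordinates and exon lengths. HTSeq's strand setting is not given in the sources used here, although the libraries were strand-specific. Rows that name no gene held 38.1% to 40.3% of all records and were left out. Most of these were alignments to several places (29.5% to 31.3% of all records).

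Counts were compared between ICF and control in R 4.3.3 with edgeR 4.0.16 (TMM, filterByExpr by group, glmQLFit, glmQLFTest), with Benjamini-Hochberg adjustment over 16729 genes and a threshold of 0.05. CPM values are TMM-scaled, and standard errors come from the SDs of log2 CPM. Alternatives were DESeq2 1.42.0, RLE or total-count scaling, a looser filter (1 count in any sample) and a stricter one (10 counts in every sample), the donor number as a block, each sample or replicate 3 left out, and the counts of ICF replicate 3 divided by 4. Offsets for exon length were added after seeing the data. The block rests on the donor numbers in the labels. Deviations from group means correlated by 0.228, 0.259 and 0.502 between same-numbered samples across genes, and by -0.446 to 0.38 between others. The procedure was tested on simulated data, with changes larger than those of the genes described here and donor effects that followed the replicate number. It therefore does not speak to changes this small or to whether the pairing holds.

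The 44 genes and the gene lists were chosen with earlier results of these data known. Values in every sample are given for genes past the threshold, for the highest and lowest fold change in each role group, for the largest and smallest spread, for 3 other biogenesis factors with the largest changes past the threshold, and for Myc and Mycn. Polr1a, Polr1b, Rrn3, Utp4, Bysl, Nop16 and Rrp1b were added after their values were seen. At a depth of 28711166 to 34194413 counts per sample as deposited, each of the 44 genes had at least 1956 counts in every sample. Whether the counts of ICF replicate 3 overstate its depth was not tested, so its true counts may be lower.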

Additional observations from a re-analysis of the deposited data

How the results depend on the processing

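The median log2 fold change of the 44 genes stayed above 0 under every alternative run, from 0.0534 to 0.0891, and of the named genes only Fbl, Noc2l and Npm1 changed sign. Fbl was at 0.0073 without ICF replicate 1 and Noc2l at 0.0073 without ICF replicate 3, and without single samples they reached down to -0.141 and -0.138. Npm1 was at -0.0551 without ICF replicate 3, at 0.0858 without ICF replicate 1 and at -0.0391 without replicate 3 of both groups. Counts of calls moved more than directions, and the cause was not tested. Upregulated among the 44 genes were 1 in the edgeR test as reported, 2 with the counts of ICF replicate 3 divided by 4, with the looser filter or with the length offset, 4 with total counts, 5 with DESeq2, 11 with the replicate block in edgeR or DESeq2 or without replicate 3 of both groups, and 13 with the block and length offset. With total counts 4.45% of all genes were upregulated. For the divided counts, the looser filter and the length offset no share of all genes is given here, so those counts have no background. Leaving out single samples gave 0 to 3 of the 44 genes (0 without control replicate 1 or 2 or ICF replicate 2, 3 without control replicate 3). Downregulated were 0, against 1 with the block (edgeR, DESeq2, or with the length offset) and 2 without replicate 3 of both groups, and 0 without any single sample. Among the 114 other factors, 5 were upregulated, against 8 with the looser filter, 9 with total counts, 11 with DESeq2, 24 and 34 with the block (DESeq2, edgeR), 36 with block and length offset, 32 without replicate 3 of both groups and 0 to 7 without single samples. Downregulated were 2, against 1 with total counts, 5 and 7 with the block (DESeq2, edgeR), 10 with block and length offset, 6 without replicate 3 of both groups and 0 to 2 without single samples. Over all genes, 580 were upregulated, against 900 with DESeq2, 1406 and 2445 with the block (DESeq2, edgeR), 2437 with block and length offset, 2466 without replicate 3 of both groups and 85 to 724 without single samples. Downregulated were 733, against 1085 with DESeq2, 1640 and 2561 with the block, 2700 with block and length offset, 2627 without replicate 3 of both groups and 215 to 928 without single samples. With total counts the median log2 fold change was 0.0891 for the 44 genes and 0.1018 for the other factors. Without single samples these medians were 0.06 to 0.07 and 0.07 to 0.10. Among the 44 genes, the block changed only the calls given with the results. Control replicate 1 correlated best with ICF replicate 2, not with its own number. With 3 samples per group, fold changes near those of Polr1b or Dkc1 pass or miss the threshold with the choice of model.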
